A study of Homo sapiens with 16 samples.

Results

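The IER genes, named for immediate-early response, were followed as IER2, IER3, IER5 and IER5L, the 4 rows of the deposited count table that carry these symbols, out of 28374 genes. They were taken by name, and each of the 4 passed the filter on low counts. Immediate-early genes are transcribed within minutes of a mitogen, without new protein synthesis, and in fibroblasts many of them are switched on through the ERK kinases and transcription factors such as SRF and its ETS-family partners. IER2, IER5 and IER5L share a related amino-terminal region, whereas IER3, also known as IEX-1, has the name in common with them and is unrelated in sequence. IER2 encodes a nuclear protein, IER3 a short-lived substrate of ERK that acts on phosphatase PP2A and on cell survival, and IER5 a PP2A-binding protein that activates the heat shock factor HSF1. IER5L is a less studied relative of IER5.

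Total RNA depleted of ribosomal RNA was sequenced from CCD-1070Sk cells, a line of human skin fibroblasts, and the cells of all groups had been serum starved. The TPA+H89 group (2 libraries) had 30 min of 10 µM H89 and then 100 nM TPA for 1 h, and the EGF+H89 group (2 libraries) had the same H89 and then 30 ng/ml EGF for 1 h. The TPA group (2 libraries) and the EGF group (3 libraries) had 1 h of the mitogen alone, the H89 group (3 libraries) had the 30 min of H89 at 0 h, and the control group was untreated at 0 h. TPA is a phorbol ester that activates protein kinase C, EGF acts through its receptor tyrosine kinase, and H89 was used in the study to inhibit the MSK kinases and also inhibits protein kinase A. Because the control and H89 groups were taken at 0 h, their time in culture may differ from that of the libraries with a mitogen at 1 h. In comparisons with these groups, the mitogen and the 1 h cannot be told apart. Of the 16 samples, control 3 and control 4 were identical at 100% of the 19340 genes detected in them and were used as 1, which left 3 controls and 15 libraries. The labels do not say whether the libraries came from separate cultures, so p-values here reflect the spread between these libraries alone, and that spread may be technical.

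Total counts ran from 7527026 in TPA+H89 1 to 130075914 in TPA 2, and the counts of the 4 genes ran from 214 to 439372. The counts themselves divide the libraries into 3 technical batches that cross the groups. Batch A, EGF 1 and control 1, was set apart by its lowest counts: 1121 and 1185 genes had 1 read, against 701 and 785 genes with 2, and in the other libraries the genes with 2 reads were more numerous. These libraries differed from each other in their share of counts at the rRNA genes RNR1 and RNR2 (0.0183% and 4.48%). Batch B held TPA+H89 1, EGF+H89 1, TPA 1, EGF 2, H89 1 and control 2, with 11.7% to 30.4% of their counts at these rRNA genes. Batch C held the other 7 libraries, with 0 counts there. Within it TPA 2 stood apart, with 124 genes at 1 read and 261 at 2. The rest of batch C had 478 to 955 and 935 to 1327. TPA 1 and TPA 2 share with none of the 3 controls used both their batch and their run of sample names (control 4, the copy, is numbered beside TPA 2), so TPA and these technical features cannot be fully told apart. Summed over 9 fibroblast markers the level was 27003 to 67821 CPM (counts relative to the library total), and each marker was detected in each group. The highest sums were 44.4 CPM over 5 keratinocyte markers, 2.82 CPM over 3 endothelial, 2.94 CPM over 4 melanocyte and 76.6 CPM over 3 leukocyte markers. In bulk RNA, fewer cells with a transcript and less of it in each cell cannot be told apart. The tests are edgeR's quasi-likelihood test on all groups together, and a gene is said to be called where its p-value, adjusted by Benjamini-Hochberg over 18575 genes, is under 0.05. A fit that adds the batch as a term is given beside this group-only fit.

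Promoters of 3 of the 4 genes were matched in RefSeq (GRCh38.p14), as windows of 250 bases before and 50 after the gene's start. They are shown because IER2 and IER5 rose with TPA and IER5L had a positive value, so that motifs of factors that act on immediate-early and heat shock genes can be set beside these responses. Capitals mark the motifs found on either strand. They are the short form of the CRE (TGACG), the core of the ETS factors (CCGGAA), the SP1 motif (GGGCGG) and the heat shock element (GAANNTTC).
IER2, chr19:13150161-13150460, plus strand: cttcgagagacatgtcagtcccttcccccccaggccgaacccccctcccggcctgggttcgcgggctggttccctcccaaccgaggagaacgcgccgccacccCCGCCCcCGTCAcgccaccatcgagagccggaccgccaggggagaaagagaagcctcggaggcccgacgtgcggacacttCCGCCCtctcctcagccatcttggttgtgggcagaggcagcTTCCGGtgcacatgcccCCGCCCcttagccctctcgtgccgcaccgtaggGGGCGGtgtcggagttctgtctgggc
IER5, chr1:181088450-181088749, plus strand: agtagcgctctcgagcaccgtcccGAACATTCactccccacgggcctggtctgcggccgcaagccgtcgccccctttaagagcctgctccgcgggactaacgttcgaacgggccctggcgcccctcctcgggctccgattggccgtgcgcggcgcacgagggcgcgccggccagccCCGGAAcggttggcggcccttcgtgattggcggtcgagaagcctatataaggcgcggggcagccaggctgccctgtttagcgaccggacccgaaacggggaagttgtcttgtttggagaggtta
IER5L, chr9:129178212-129178511, minus strand: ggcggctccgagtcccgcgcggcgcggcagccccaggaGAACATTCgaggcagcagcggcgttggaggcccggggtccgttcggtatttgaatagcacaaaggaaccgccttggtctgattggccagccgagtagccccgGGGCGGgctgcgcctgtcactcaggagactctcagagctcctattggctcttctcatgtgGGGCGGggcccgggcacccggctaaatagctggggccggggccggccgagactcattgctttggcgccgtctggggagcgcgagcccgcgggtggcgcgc

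All 3 windows were richer in G and C (69.7% in IER2, 67.3% in IER5 and 69.3% in IER5L) than the mean of 57.5% over 35116 promoters. The same 8 letters, GAACATTC, began at −226 from the start of IER5 and at −212 from that of IER5L, while the IER2 window had no match to GAANNTTC. On either strand GAANNTTC is held by 6.77% of all promoters and GAACATTC itself by 0.834%; the shared 8 letters were noticed after the search. IER2 had 1 short CRE (in 24.6% of promoters), 1 ETS core (17.2%) and 4 SP1 motifs (45.0%), the last of them past the start. IER5 had 1 ETS core and IER5L had 2 SP1 motifs. Also searched on both strands were the CArG box of SRF (in 1.29% of promoters), the full CRE TGACGTCA, which contains the short form (1.85%), the AP-1 motif TGACTCA (4.95%) and the EGR motifs GCGTGGGCG (0.795%) and GCGGGGGCG (5.07%). The search also covered the NF-kappaB motif (12.3%), the heat shock form TTCNNGAA (7.74%) and the TATA motif TATAAA (11.5%). Letters of these 8 motifs were not in the 3 windows. Only the forms given were searched, so near forms were missed, such as the letters tatataag in the IER5 window beside TATAAA.

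Levels are given as CPM scaled by TMM, a factor that sets libraries of unequal makeup on one scale. IER2 was high in all libraries with a mitogen and low in the others. It stood at 196 and 114 CPM in TPA+H89, 76.2 and 96.2 CPM in EGF+H89, and 184 and 605 CPM in TPA. The EGF libraries had 87.5, 58.4 and 77.2 CPM, the H89 libraries 15.9, 22.6 and 11.5 CPM, and the controls 22.4, 15.9 and 30.9 CPM. The 9 libraries with a mitogen did not overlap with the 6 without one. In order of the group mean, TPA and TPA+H89 overlapped, EGF+H89 and EGF overlapped below them, and the control and H89 groups overlapped at the bottom.

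IER3 reached the highest levels of the 4. It stood at 519.7 and 857 CPM in TPA+H89, 525 and 553 CPM in EGF+H89, and 683 and 3631 CPM in TPA. The EGF libraries had 83.4, 269 and 357 CPM, the H89 libraries 40.4, 38.1 and 46.3 CPM, and the controls 20.8, 32.1 and 106 CPM. TPA 2 stood far above the rest, where IER3 took 0.338% of all counts and ranked 18 among genes. Control 3 was above EGF 1, so EGF and control overlapped, while both EGF+H89 libraries lay above all 3 EGF libraries.

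IER5 had the narrowest range. It stood at 127 and 118 CPM in TPA+H89, 145 and 151 CPM in EGF+H89, and 159.8 and 411 CPM in TPA. The EGF libraries had 283, 151 and 184 CPM, the H89 libraries 76.1, 93.8 and 91.5 CPM, and the controls 78.9, 63.0 and 90.5 CPM. As with IER2, no library with a mitogen overlapped with one without. The order of group means differed from IER2, with EGF second after TPA, and both mitogens with H89 below the same mitogen alone.

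IER5L overlapped between all neighbouring groups. It stood at 39.0 and 148 CPM in TPA+H89, 80.4 and 106 CPM in EGF+H89, and 50.8 and 452 CPM in TPA. The EGF libraries had 36.4, 50.3 and 115 CPM, the H89 libraries 31.2, 40.5 and 45.0 CPM, and the controls 32.6, 36.6 and 54.9 CPM. Within TPA, TPA+H89 and EGF+H89 its libraries were further apart than those of the other 3 genes, whereas in EGF and control IER3 was the most spread, and in H89 IER2. Its TPA libraries differed 8.89-fold, against 5.32-fold for IER3, 3.28-fold for IER2 and 2.57-fold for IER5.

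**Figure D1:**
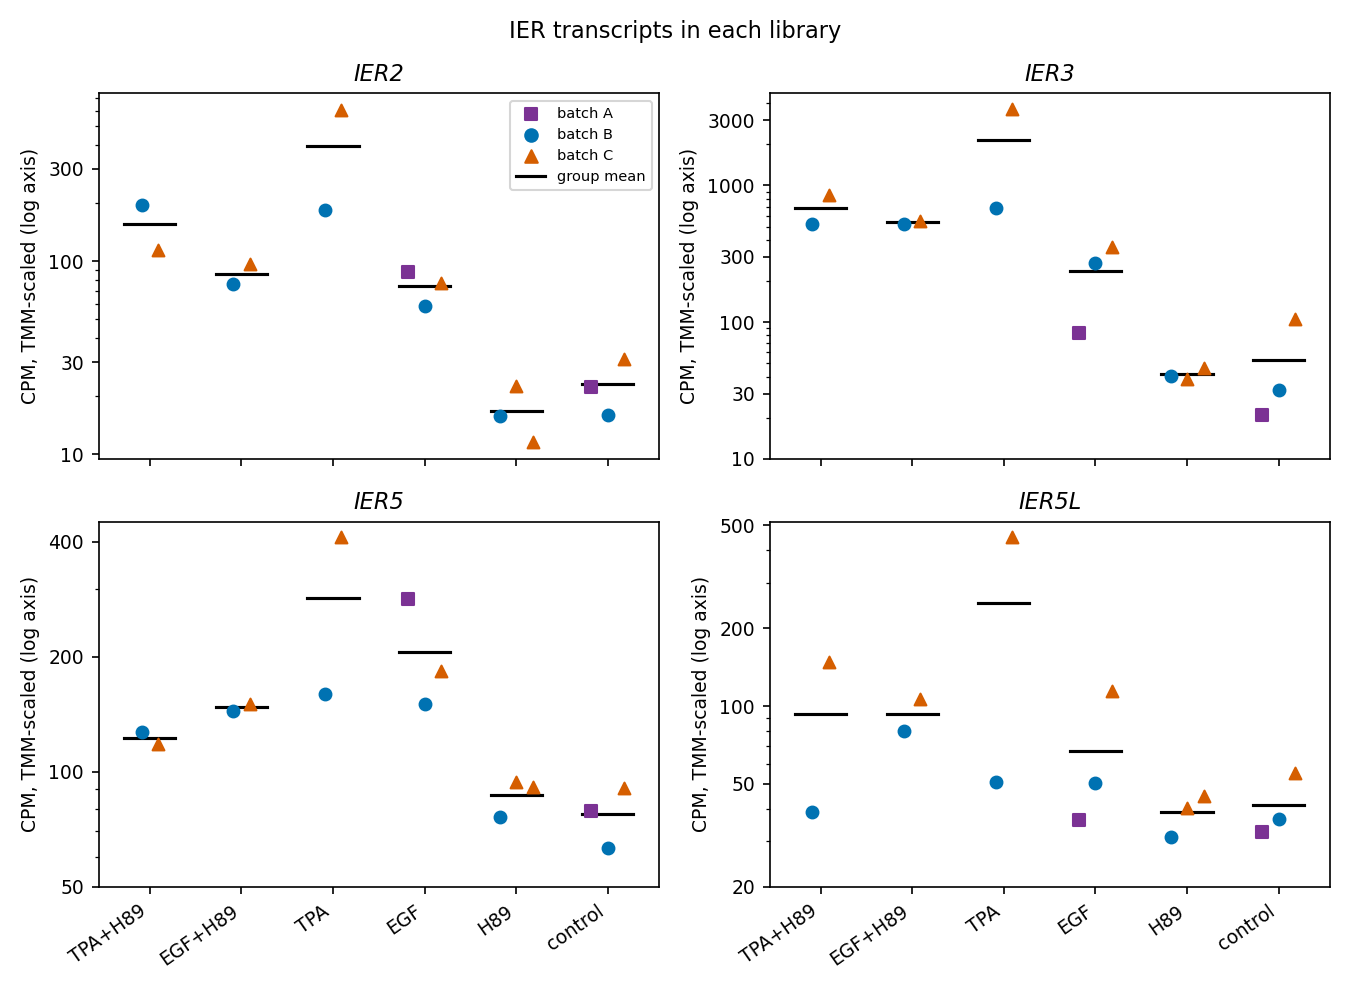
TMM-scaled CPM of IER2, IER3, IER5 and IER5L in each of 15 libraries (log axis), by group, with the group mean as a bar and the technical batch as the marker. IER2 and IER5 separate all libraries with a mitogen from those without, and TPA 2 (605, 3631, 411 and 452 CPM) is the highest library for each gene.

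Per kilobase of exon the 4 genes can be set beside each other as levels. Lengths of 3072, 1356, 4188 and 2711 bases for IER2, IER3, IER5 and IER5L come from an annotation on GRCh38, while the counts were made on another build. As levels in controls the mean was 39.1 CPM per kb for IER3, 18.5 for IER5, 15.3 for IER5L and 7.51 for IER2. In TPA it was 1591 CPM per kb for IER3, 128 for IER2, 92.8 for IER5L and 68.1 for IER5. IER2 thus stood lowest of the 4 by mean in controls and second in TPA. In the controls the libraries of IER3, IER5 and IER5L overlapped, and those of IER2 lay below them. IER3 is overlapped by an antisense gene, as are IER2 and IER5L, and whether the counting used strand is not given in the sources used here, so reads of such pairs cannot be told apart.

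TPA against control set 1 h of the phorbol ester beside untreated cells at 0 h. IER2, IER3 and IER5 rose. The log2 fold change was 4.09 ± 0.49 for IER2 (SE; adjusted p = 0.00297, edgeR), about 17.1-fold, with a 95% interval of 3.03 to 5.16. For IER3 it was 5.35 ± 0.84 (adjusted p = 0.0164, edgeR), about 40.7-fold, the 16th highest value among the 18575 genes. IER5 rose by 1.88 ± 0.37 (adjusted p = 0.0484, edgeR), about 3.68-fold. IER5L had 2.60 ± 0.75 and was not called (adjusted p = 0.204, edgeR). Thus 3 of 4 members were called, where 0.415% of all tested genes were. With the batch term 3 of 4 were called against 1.25% of genes, at 4.09 ± 0.44, 4.83 ± 0.49 and 1.95 ± 0.31, and IER5L had 1.94 ± 0.49 (adjusted p = 0.0686, edgeR). DESeq2 called 4 of 4, against 2.84% of genes, and edgeR called 0 of 4 when only the TPA and control libraries were fitted.

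The size of this rise rested in part on TPA 2, whose total count was the largest. Without TPA 2 the log2 fold changes were 3.0 for IER2, 3.69 for IER3, 1.05 for IER5 and 0.30 for IER5L, and IER2 was called (1 of 4, against 0.0665% of genes). The median over all genes was −0.19 in that fit, −0.24 without TPA 1 and −0.02 with both libraries. Without TPA 1 the log2 fold changes of the 4 genes, in the same order, were 4.69, 6.10, 2.38 and 3.43, and 4 of 4 were called, against 5.92% of genes. IER2 was called in each of the 15 fits that left out 1 library, with adjusted p from 0.000574 to 0.0245 (edgeR). IER3 was called in 12 of 15 and was lost without control 1 (4.96), control 2 (5.05) or TPA 2 (3.69). IER5 was called in 2 of 15, those without TPA 1 or without EGF 1, at log2 fold changes from 1.05 to 2.38 over all 15. Within batch B, TPA 1 was above control 2 by 3.53 (IER2), 4.41 (IER3), 1.34 (IER5) and 0.47 (IER5L) on the log2 CPM scale. Within batch C, TPA 2 was above control 3 by 4.29, 5.10, 2.18 and 3.04.

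EGF against control gave the same sign for all 4 genes, with smaller values. No member was called in the group-only fit, where 0.0269% of genes were. Before adjustment 3 of 4 were under 0.05, as were 303 of 18575 genes. The log2 fold change in EGF was 1.69 ± 0.43 for IER2 (adjusted p = 0.657, edgeR), 2.16 ± 0.70 for IER3 (adjusted p = 1.00, edgeR) and 1.41 ± 0.34 for IER5 (adjusted p = 0.493, edgeR). IER5L had 0.70 ± 0.67. Once the batch was a term, IER3 rose, by 2.23 ± 0.40 (adjusted p = 0.0326, edgeR), as 1 of 4 against 0.221% of genes, and IER5 stood just outside the threshold (adjusted p = 0.0552, edgeR). DESeq2 called 2 of 4, against 0.371% of genes, and these were IER2 and IER5. Within batches A, B and C the EGF library was above its control by 1.96, 1.87 and 1.32 for IER2, by 2.00, 3.07 and 1.75 for IER3, and by 1.84, 1.26 and 1.02 for IER5. The values for IER5L were 0.16, 0.46 and 1.06.

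TPA against EGF tested the difference between the mitogens, each at its own dose. In the group-only fit 0 of 4 members were called, against 0% of genes. Before adjustment 3 of 4 were under 0.05, as were 2480 of 18575 genes. IER2 had a log2 fold change of 2.41 ± 0.47, IER3 3.19 ± 0.77, IER5 0.47 ± 0.37 and IER5L 1.91 ± 0.74. The batch-term fit had IER2 and IER3 higher in TPA, by 2.38 ± 0.43 (adjusted p = 0.0254, edgeR) and 2.60 ± 0.46 (adjusted p = 0.0227, edgeR), which is 2 of 4 against 0.334% of genes. DESeq2 called the same 2 genes, against 1.73% of genes. Here too TPA 2 mattered: without it 0 of 4 were called, against 0% of genes, and IER5 and IER5L changed sign, to −0.36 and −0.40. Without TPA 1, 3 of 4 were called, against 5.81% of genes.

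**Figure D2:**
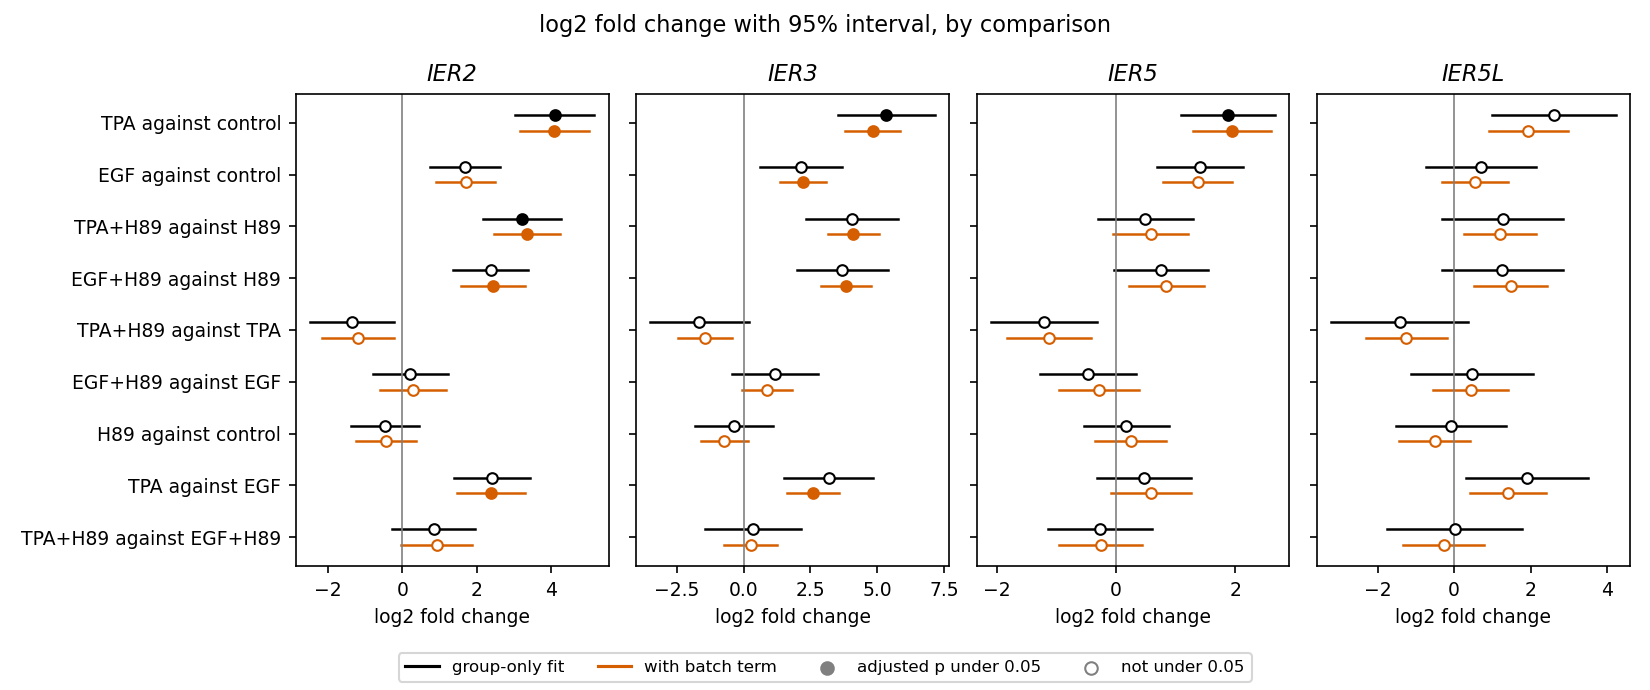
Log2 fold changes of the 4 IER genes with 95% intervals in 9 comparisons, from the group-only fit (black) and the fit with a batch term (orange), with filled points where the adjusted p is under 0.05. Filled points are found in comparisons of a mitogen with its own baseline and of TPA with EGF, and every point for H89 against control and for either mitogen with and without H89 is open.

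H89 against control measured the inhibitor on its own, and no change in the 4 genes passed the test. The log2 fold changes were −0.47 ± 0.42 for IER2, −0.35 ± 0.68 for IER3, 0.17 ± 0.33 for IER5 and −0.09 ± 0.66 for IER5L. None of the 4 was called by edgeR in either fit, where 0% of genes were, and 0 of 4 had an unadjusted p under 0.05. DESeq2 called 0 of 4 and 0.012% of genes. The 95% interval was −1.38 to 0.44 for IER2, −1.81 to 1.11 for IER3 and −1.53 to 1.35 for IER5L, each reaching past a 2-fold decrease, and −0.55 to 0.88 for IER5. Within batches B and C, H89 against control gave 0.33 and −1.34 for IER3. The H89 libraries were less spread than the controls for IER3 (SD 0.14 against 1.22 in log2 CPM).

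TPA+H89 against TPA and EGF+H89 against EGF asked what the inhibitor did to the response. With TPA all 4 genes had negative values, at −1.35 ± 0.52 for IER2, −1.65 ± 0.85 for IER3, −1.22 ± 0.41 for IER5 and −1.42 ± 0.83 for IER5L (log2, SE). None passed the test (adjusted p = 0.713, 0.731, 0.713 and 0.766, edgeR), where 0% of genes did. An unadjusted p under 0.05 was found for 2 of 4, and for 1300 of 18575 genes. Fitted with the batch, the values were −1.18 ± 0.46, −1.45 ± 0.48, −1.13 ± 0.33 and −1.25 ± 0.50, again 0 of 4 called against 0% of genes. Before adjustment 4 of 4 had p under 0.05 in that fit, as had 2484 of 18575 genes. DESeq2 called 0 of 4 and 0.0836% of genes. For IER5 alone both TPA+H89 libraries lay below both TPA libraries.

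These negative values differed between the batches and rested on TPA 2. Within batch C, TPA+H89 2 against TPA 2 gave −2.41 for IER2, −2.08 for IER3, −1.80 for IER5 and −1.61 for IER5L on the log2 CPM scale. Within batch B, TPA+H89 1 against TPA 1 gave 0.09, −0.39, −0.33 and −0.38. Without TPA 2 the fitted values were −0.25 for IER2, 0.01 for IER3, −0.38 for IER5 and 0.89 for IER5L, with 0 of 4 called against 0% of genes. Without TPA 1, IER2 fell by 1.99 and IER5 by 1.75 (adjusted p = 0.0392 and 0.0336, edgeR), as 2 of 4 called against 3.59% of genes. Depth moved with this comparison: TPA 2 and TPA+H89 2 held 130075914 and 70470733 counts, and TPA 1 and TPA+H89 1 held 33522696 and 7527026; its part in the result was not tested.

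With EGF the inhibitor went with no common sign. EGF+H89 against EGF had 0.21 ± 0.47 for IER2, 1.19 ± 0.74 for IER3, −0.48 ± 0.37 for IER5 and 0.47 ± 0.74 for IER5L. None of the 4 was called by edgeR in either fit, where 0% of genes were, and 0 of 4 had an unadjusted p under 0.05. DESeq2 called 0 of 4 and 0.004% of genes. IER3 was higher in both EGF+H89 libraries than in any EGF library, by 0.96 within batch B and 0.63 within batch C. EGF 1, the lowest EGF library for IER3, has no EGF+H89 library in its batch. IER5 was lower in both EGF+H89 libraries than in any EGF library, although EGF+H89 2 (150.7 CPM) lay just under EGF 2 (150.8 CPM), and the within-batch values were −0.06 and −0.29.

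**Figure D3:**
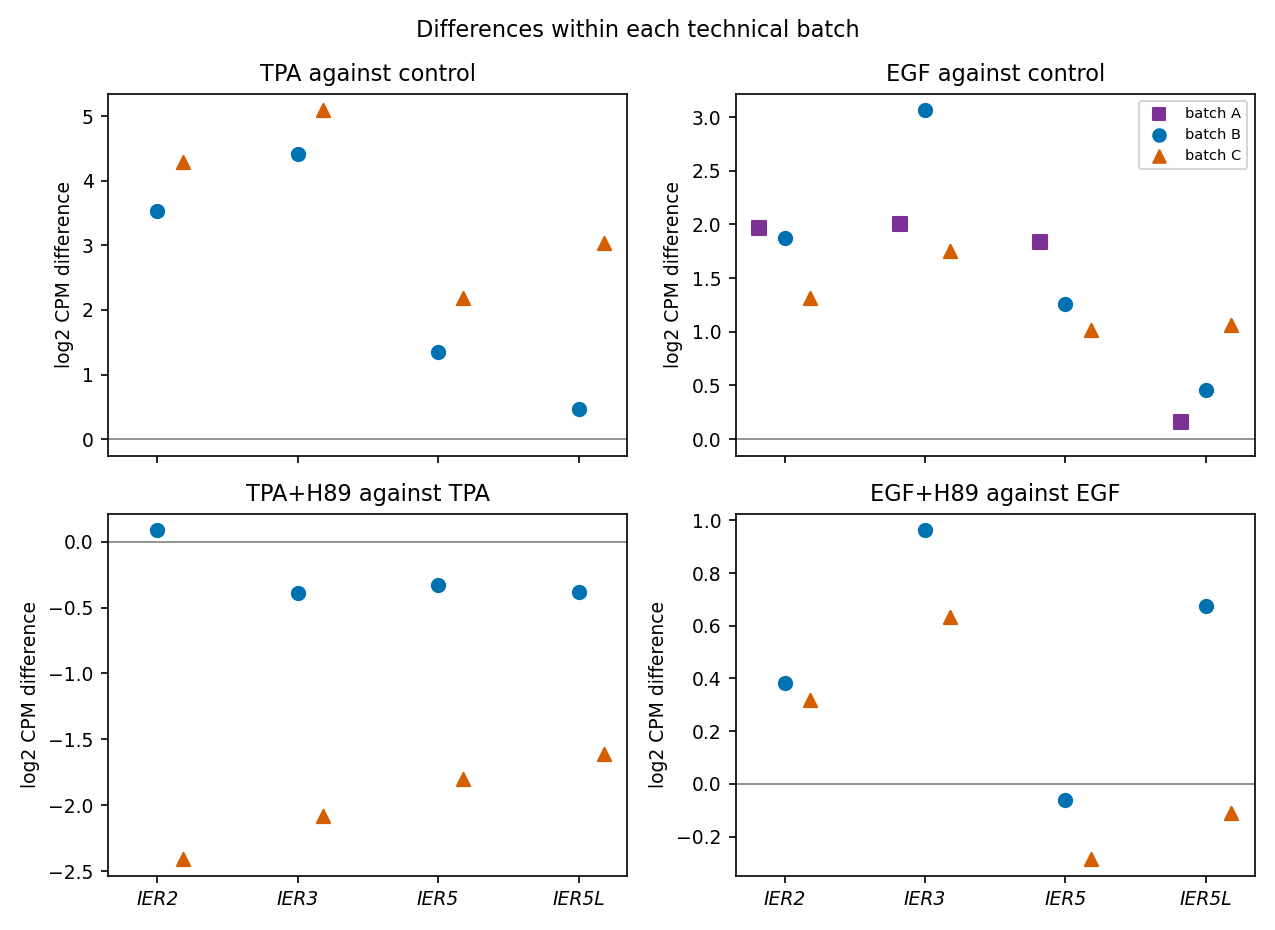
Differences in log2 CPM within each technical batch for TPA against control, EGF against control, TPA+H89 against TPA and EGF+H89 against EGF, for each IER gene. The values of TPA+H89 against TPA lie between −1.61 and −2.41 in batch C and between −0.39 and 0.09 in batch B.

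The interaction terms tested whether H89 changed the response itself, as the difference between the response with H89 and the response without it. Because the H89 group was taken at 0 h, the time since H89 was added also enters these terms and cannot be told apart. For TPA the term was −0.88 ± 0.66 for IER2, −1.30 ± 1.07 for IER3, −1.39 ± 0.53 for IER5 and −1.33 ± 1.06 for IER5L. For EGF it was 0.68 ± 0.63, 1.54 ± 1.01, −0.65 ± 0.50 and 0.56 ± 0.99. In both interactions 0 of 4 were called by edgeR in either fit and by DESeq2, against 0% of genes. The unadjusted p was under 0.05 for IER5 with TPA in both fits, and for IER3 with EGF in the batch-term fit (1.60 ± 0.57). Of all 18575 genes, 887 (group-only) and 1449 (batch term) were under 0.05 with TPA, and 144 with EGF in the batch-term fit. The 95% interval for TPA was −2.52 to −0.25 for IER5, −2.32 to 0.56 for IER2, −3.62 to 1.02 for IER3 and −3.62 to 0.95 for IER5L. Without TPA 2 the TPA term was 0.21 for IER2, 0.36 for IER3, −0.55 for IER5 and 0.97 for IER5L.

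Responses in the presence of H89 were measured against H89 alone. IER2 rose in TPA+H89 by 3.21 ± 0.48 (adjusted p = 0.0257, edgeR), as 1 of 4 called where 0.0969% of genes were. IER3 had 4.05 ± 0.79 (adjusted p = 0.118, edgeR), IER5 0.49 ± 0.37 and IER5L 1.27 ± 0.73. Under the batch term IER2 and IER3 both rose, by 3.35 ± 0.42 and 4.10 ± 0.45 (adjusted p = 0.000586 and 0.000179, edgeR), 2 of 4 against 0.431% of genes. DESeq2 called the same 2, against 0.46% of genes. In the group-only fit the IER2 call was lost without H89 1 (3.18), H89 2 (3.50), H89 3 (3.01), TPA+H89 1 (2.78), EGF+H89 1 (3.13) or EGF+H89 2 (3.21). Without TPA+H89 2 the value of IER5L was −0.00064.

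EGF+H89 against H89 gave 2.37 ± 0.47 for IER2, 3.70 ± 0.78 for IER3, 0.76 ± 0.37 for IER5 and 1.26 ± 0.73 for IER5L. In the group-only fit 0 of 4 were called, against 0.0269% of genes. Before adjustment 2 of 4 were under 0.05, as were 284 of 18575 genes. The batch-term fit had IER2 rise by 2.43 ± 0.40 (adjusted p = 0.0112, edgeR) and IER3 by 3.83 ± 0.45 (adjusted p = 0.00054, edgeR), 2 of 4 against 0.269% of genes. DESeq2 called the same 2, against 0.33% of genes. For IER3 the difference was 3.70 within batch B and 3.72 within batch C. Neither IER5 nor IER5L was called by edgeR in either fit or by DESeq2. All 4 genes were higher in both EGF+H89 libraries than in any H89 library. How many of all genes separated in this way was not counted, here or in the other comparisons.

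TPA+H89 against EGF+H89 set the mitogens side by side under the inhibitor. IER2 had 0.84 ± 0.52, IER3 0.35 ± 0.83, IER5 −0.27 ± 0.41 and IER5L 0.01 ± 0.81. Of the 4, 0 were called by edgeR in either fit and by DESeq2, against 0% of genes, and 0 had an unadjusted p under 0.05 in the group-only fit. Both IER2 values in TPA+H89 were above those in EGF+H89, and both IER5 values were below them. The 95% interval was −0.27 to 1.96 for IER2, −1.44 to 2.14 for IER3, −1.15 to 0.61 for IER5 and −1.75 to 1.77 for IER5L, and each contains a 2-fold difference in at least 1 direction.

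Ratios taken within a library do not depend on its scaling. IER3 held 4.09 and 7.26 counts per count of IER5 in TPA+H89, 3.63 and 3.67 in EGF+H89, and 4.27 and 8.84 in TPA. The EGF libraries had 0.295, 1.79 and 1.94, the H89 libraries 0.531, 0.406 and 0.506, and the controls 0.264, 0.509 and 1.17. TPA libraries, with or without H89, and EGF+H89 libraries thus had more IER3 per IER5 than any EGF, H89 or control library. IER5L per IER5 was 0.307 and 1.26 in TPA+H89, 0.556 and 0.704 in EGF+H89, and 0.318 and 1.10 in TPA. It was 0.129, 0.333 and 0.624 in EGF, 0.410, 0.432 and 0.492 in H89, and 0.413, 0.581 and 0.606 in the controls. TPA, TPA+H89 and EGF overlapped with H89 and with control in this second ratio, and EGF+H89 overlapped with control and lay above H89. In TPA+H89 and TPA it was above 1 in the batch C library and at most 0.318 in the batch B library.

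**Figure D4:**
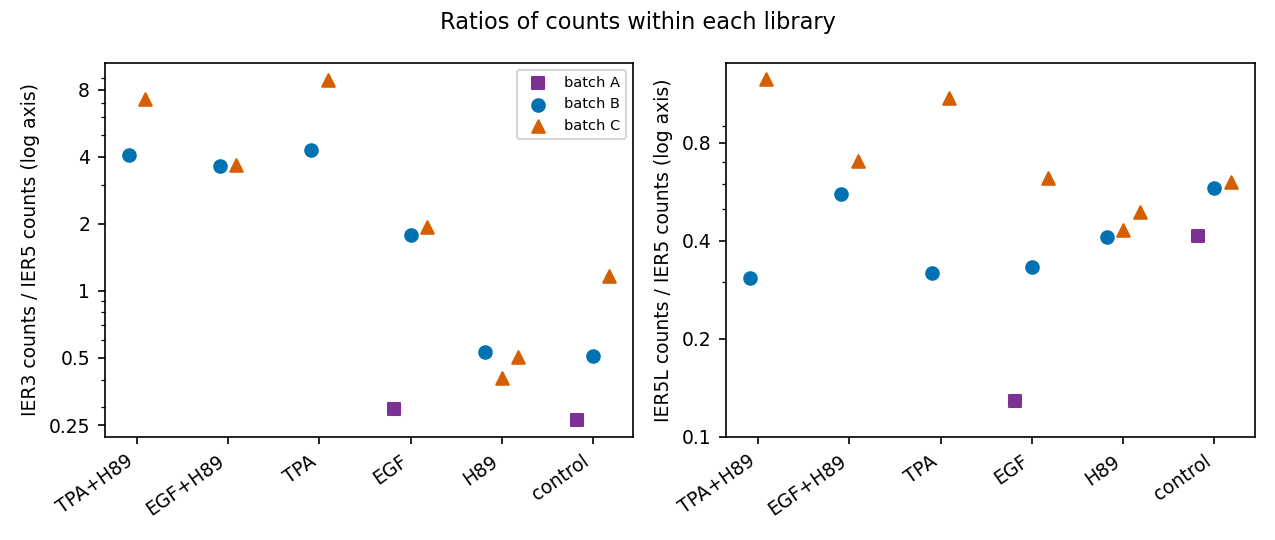
Ratio of IER3 to IER5 counts (left) and of IER5L to IER5 counts (right) within each library, on log axes, by group, with the technical batch as the marker. The IER3 to IER5 ratio is 3.63 or more in TPA+H89, EGF+H89 and TPA and at most 1.94 elsewhere, while the IER5L to IER5 ratio of each mitogen group overlaps with that of the controls.

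Other immediate-early genes were read from a list of 24. With TPA 13 of 24 rose and 0 fell, where 0.415% of all genes were called, with a median log2 fold change of 3.51 against −0.02 over all genes. Without TPA 2 the list median was 2.79 against −0.19 over all genes, and without TPA 1 it was 3.95 against −0.24. Among the 24, with both TPA libraries, the transcription factor gene EGR2 rose by 5.49 ± 0.57 (adjusted p = 0.00131, edgeR) and the nuclear receptor NR4A3 by 4.92 ± 0.48 (adjusted p = 0.00131, edgeR). IER3, at 5.35, lay beside these, and IER5, at 1.88, lay under the median of the list. With EGF 2 of 24 rose, EGR2 and ATF3, where 0.0269% of genes were called, at a list median of 2.01 against 0.02 over all genes. The batch-term fit called 20 of 24 for TPA, against 1.25% of genes, and 12 of 24 for EGF, against 0.221%. In TPA+H89 against TPA, 0 of 24 were called by edgeR in either fit, with 11 of 24 under 0.05 before adjustment in the group-only fit, where 1300 of 18575 genes were, and a list median of −1.23 against −0.02 over all genes. This too rested on TPA 2: without it the list median was −0.31 against 0.006 over all genes. Without TPA 1 the list median was −1.47 against 0. With all 15 libraries, DESeq2 called 2 of 23 lower in TPA+H89 than in TPA, where 0.0836% of all genes were called. These were the anti-proliferative gene BTG2 and the phosphatase gene DUSP1, and BTG2 is named after its values were seen.

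Partners of the IER proteins and their targets were read from 5 further lists. Of 3 genes named for their link to IER3, MCL1, a survival protein that IER3 binds and that is also among the 24, rose with TPA by 2.23 ± 0.31 (adjusted p = 0.00853, edgeR). Without TPA 2 MCL1 had 1.84 and was not called (adjusted p = 0.101, edgeR). ATPIF1, the inhibitor of the mitochondrial ATPase, had 1.70 ± 0.62 and IER3IP1, an endoplasmic reticulum protein named for binding IER3, had 0.05 ± 0.33. Of 16 HSF1 and heat shock genes, DNAJB1, a co-chaperone, rose with TPA by 1.31 ± 0.24 (adjusted p = 0.0395, edgeR), and 0 fell. These were 1 of 3 and 1 of 16 called, where 0.415% of all genes were. Without TPA 2 its value was 1.42 (adjusted p = 0.16, edgeR) and without TPA 1 it was 1.16 (adjusted p = 0.0508, edgeR), and it was called in neither fit. DNAJB1 stood at a mean of 296.9 ± 31.3 CPM in TPA and 119.6 ± 21.7 CPM in control (SD, n = 2 and 3). BAG3 had 1.39 ± 0.42 and HSPB1 1.69 ± 0.59 (1.10 ± 0.39 with the batch term), neither called, and CRYAB had −0.92 ± 0.45. The median of this list was 0.66 in TPA against control and −0.02 over all genes, and with the batch term it was 0.38 and 0.02. With EGF 0 of these 16 were called by edgeR in either fit or by DESeq2, where 0.0269%, 0.221% and 0.371% of all genes were. DNAJB1 had 0.56 ± 0.22 with EGF. Before adjustment 1 of 16 was under 0.05, where 303 of 18575 genes were (group-only fit).

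Subunits of PP2A, the phosphatase that IER3 and IER5 bind, gave 0 of 13 called with TPA and with EGF by edgeR in both fits and by DESeq2, with 0 under 0.05 before adjustment in the group-only fit. Over all genes the shares called were 0.415% for TPA and 0.0269% for EGF in the group-only fit. With the batch term they were 1.25% and 0.221%, and by DESeq2 2.84% and 0.371%. A count of 0 in this list and in the lists below lies near these shares. PPP2R2A, a B55 subunit, had 0.76 ± 0.46 with TPA, PPP2R5D, a B56 subunit, −0.86 ± 0.40, and the scaffold subunit PPP2R1A −0.51 ± 0.38. With the batch as a term these values were 0.47 ± 0.40, −0.39 ± 0.26 and −0.14 ± 0.28. PPP2R2B had −0.99 ± 0.81 with TPA in the group-only fit, at a mean of 0.35 CPM in TPA. Kinases of the ERK pathway gave 0 of 11 called for each mitogen by the same tests. For TPA 1 of 11 was under 0.05 before adjustment in the group-only fit and 3 with the batch term. For EGF 0 were under it in both fits. Of all 18575 genes, 2453 and 3347 were under 0.05 for TPA in these fits, in that order, and 303 and 549 for EGF. In TPA against control MAP2K2 had 1.12 ± 0.51 and the MSK2 gene RPS6KA4 had 0.83 ± 0.39. MAP2K1 had 0.42 ± 0.27 and MAPK3 −0.42 ± 0.35. A list of 11 transcription factors chosen as possible regulators of IER promoters also gave 0 called for each mitogen, with 1 under 0.05 before adjustment for each in both fits, and with ELK1 at 1.02 ± 0.33 and SRF at 0.62 ± 0.31 in TPA against control. RELA had 0.77 ± 0.41 and MKL1 0.56 ± 0.38 with TPA. For RELA and MKL1 these were 1.15 and 1.01 without TPA 1, and 0.19 and −0.19 without TPA 2. In EGF against control SRF had 0.84 ± 0.28 and was not called. Without TPA 1, MAP2K2, ELK1, BAG3, HSPB1 and ATPIF1 had 1.79, 1.54, 1.89, 2.32 and 2.41 in TPA against control. Without TPA 2 the values were −0.31, 0.14, 0.55, 0.47 and 0.16, in the same order, so their size rested on TPA 2.

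The genes whose levels followed each member most closely were found among 13458 genes by Pearson's r over the 15 libraries, as a description in which shared batches and treatments enter. For IER2 they were MCL1 (r = 0.96), MAFF, SPRY2, SERTAD1 and ING1, and for IER3 they were KDM6B (r = 0.97), JUNB, GADD45B, ID3 and TRIB1. For IER5 they were JUN (r = 0.96), ARPC5L, RHOB, MAFK and SLC25A25, and for IER5L they were FOXC2 (r = 0.95), FAM89A, CEBPB, IRX2 and ID3. After each batch was centred on its mean, IER2 was most like PPP1R15A (r = 0.97), IER3 most like JUNB (r = 0.98), IER5 again most like JUN (r = 0.96) and IER5L most like PDGFA (r = 0.95). IER2 and IER3 then had r = 0.97 with each other, and each was among the 5 genes most like the other. IER5 and IER5L, the related pair, had r = 0.66 before and 0.77 after centring, the lowest of the 6 pairs in both cases.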

How the data were processed

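The values used were raw counts of reads per gene symbol, as deposited by the authors for 28374 genes and 16 samples. The submitters' processing notes name HOMER, hg19 and GRCh37; no aligner, annotation or strand setting of the counting is given in the sources used here. Libraries were made strand-specific on 3 named sequencers, per the labels' protocols, without being tied to samples. Duplicate controls were used once. Counts were tested in R 4.3.3 with edgeR 4.0.16 (filterByExpr with a smallest count of 10, TMM scaling, quasi-likelihood test, Benjamini-Hochberg over 18575 genes). CPM is TMM-scaled and log2 CPM has a prior count of 2. Batches were read from the counts. DESeq2 1.42.0 tested 9570 to 24996 genes per comparison, and 1 of the 24 other immediate-early genes had no DESeq2 p. The edgeR tests of TPA and of EGF against control were tried on simulated counts, with the same spread for all genes and no batch effect. The outcome is not given here.

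Named were the 4 members and the 5 genes most like each (mean of at least 1 CPM). Per list, up to 4 genes were named in order of p in TPA against control. Of the other list genes called in a comparison, most were counted without being named. Members and lists were chosen with earlier results of these data known. Exon lengths and promoters came from GRCh38, which the counts did not use, and gave no coordinate of a count.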

Additional observations from a re-analysis of the deposited data

How the results depend on the processing

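No paired analysis was possible because no replicate number in the labels is shared between groups. Blocks that do not pair replicates, for the runs of sample names (sets) and for the technical batch, were fitted. Of the values of single genes under other settings, 38 changed sign, 30 fell out of the threshold, 39 entered it and 1037 did neither. Members called moved as follows. In EGF against control, 0 became 2 with DESeq2, 1 with the batch term and 3 with the batch term without TPA 2. In TPA against control, 3 became 0 when only the compared groups were fitted, and 1 to 4 when single libraries were left out. In EGF+H89 against H89, 0 became 2 with DESeq2, only the compared groups, the batch term, a block for sets of sample names or without the 3 libraries that stand apart (control 1, EGF 1 and TPA 2), 1 with the batch term without batch A and 3 with the batch term without TPA 2. In TPA+H89 against H89, 1 became 2 in these settings, 3 with the batch term without TPA 2, and 0 to 1 when libraries were left out. TPA against EGF went to 2 with DESeq2 and the batch term, and 0 to 3 without single libraries; TPA+H89 against TPA gave 0 to 2.

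Signs turned as follows (log2). Without the 3 libraries, TPA+H89 against TPA gave 0.012 (IER3) and 0.89 (IER5L), the TPA interaction 0.24 (IER2), 0.75 (IER3) and 1.13 (IER5L), and TPA against EGF −0.067 (IER5) and −0.70 (IER5L). With the batch term without TPA 2 the values were 0.26 (IER5L, TPA+H89 against TPA), 0.10, 0.43 and 0.72 (IER2, IER3 and IER5L, TPA interaction), and −0.072 and −0.055 (IER5 and IER5L, TPA against EGF). TPA+H89 against EGF+H89 was near 0 for IER5L and gave −0.0202 with DESeq2, −0.0183 with its size factors, −0.0202 with only the compared groups, −0.0079 with no filter, −0.28 with the batch term, whether with or without batch A,, −0.19 with the batch term without TPA 2 and −1.32 with the block, which also gave −0.35 for IER3. Leaving out single libraries gave ranges of −0.73 to 0.66 (IER3) and −0.24 to 0.17 (IER5L) in H89 against control, −1.56 to 0.21 (IER2), −2.30 to 0.36 (IER3) and −2.61 to 0.97 (IER5L) in the TPA interaction, and −0.36 to 0.96 (IER5) and −0.40 to 2.73 (IER5L) in TPA against EGF. The ranges were −0.055 to 0.68 (IER3) and −1.26 to 0.68 (IER5L) in TPA+H89 against EGF+H89, −0.00064 to 1.94 (IER5L) in TPA+H89 against H89, and −2.39 to 0.015 (IER3) and −2.69 to 0.89 (IER5L) in TPA+H89 against TPA. The cause was not tested.

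The settings without batch A and without TPA 2 under the batch term, and the gene lists without TPA 1 or TPA 2, were chosen after seeing the data. Each of the 4 genes had at least 214 counts in each library, and groups of 2 or 3 libraries limit precision. Where a left-out library leaves 1 in a group, that one is assumed to vary like the other groups.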
